A study of Mus musculus with 12 samples.

Results

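The genes described here are 45 antiviral interferon-stimulated genes, chosen by their mouse symbols from the 55335 genes listed in the count files. Their RNA was measured by sequencing in neutrophils of 10-week-old FVB mice, in 3 groups with 4 libraries each. PyMT TANs were tumor-associated neutrophils from mammary tumors of mice carrying PyMT, the polyoma middle T oncogene, whose expression drives mammary tumors. PyMT-Cxcr2-/- TANs came from tumors of PyMT mice that also lacked Cxcr2, the chemokine receptor through which neutrophils follow Cxcl1 and related ligands. WT BM neutrophils came from femur and tibia marrow of mice with neither the oncogene nor the deletion. Neutrophils were sorted as CD45+ CD11b+ Ly6G+ F4/80- cells. The Cxcr2 deletion was present in the whole animal, so the tumor and host cells of those mice lacked the receptor as well as the neutrophils. No neutrophils from WT mammary tissue or from Cxcr2-/- marrow are compared here, so tissue, tissue digestion and tumor genotype cannot be told apart in the comparisons of TANs with WT BM neutrophils.

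Type I interferons bind the receptor chains Ifnar1 and Ifnar2 and act through Jak1 and Tyk2 to assemble a complex with Stat2 and Irf9 that binds the interferon-stimulated response element (ISRE) in the promoters of target genes. Interferon gamma acts through Ifngr1, Ifngr2, Jak1 and Jak2 on genes whose promoters hold the gamma-activated sequence (GAS). The target genes encode sensors of viral nucleic acid, enzymes and binding proteins that block viral RNA, translation or release, guanylate-binding proteins and other GTPases that attack vacuoles of pathogens, and chemokines. In neutrophils, some of these genes are also transcribed at rest.

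Library totals were 25032704 to 43092085 assigned reads for PyMT TANs, 35519181 to 51351569 for PyMT-Cxcr2-/- TANs and 38722900 to 44310707 for WT BM neutrophils. Levels are given as CPM, read counts scaled to the library total with TMM factors, and a gene was called when its Benjamini-Hochberg adjusted p in edgeR was under 0.05 with a fold of at least 1.5. Cxcr2 itself measured 1029.5 to 1536 CPM in PyMT TANs, 8.97 to 10.1 CPM in PyMT-Cxcr2-/- TANs and 1818 to 2250 CPM in WT BM neutrophils, so the Cxcr2 level matched the Cxcr2 genotype on the label in all 12 libraries. The oncogene itself was not checked. Markers of the sorted cell type were present in every library: 8 neutrophil markers, Cxcr2 among them, summed to 72349 to 94917 CPM in WT BM neutrophils, 9967 to 15800 CPM in PyMT TANs and 16794 to 27513 CPM in PyMT-Cxcr2-/- TANs. Macrophage markers were present too. The 8 of them summed to 196 to 283 CPM in WT BM neutrophils, 1296 to 2624 CPM in PyMT TANs and 1287 to 2167 CPM in PyMT-Cxcr2-/- TANs, and C1qa, C1qb and C1qc, complement genes of tissue macrophages, lay at or under 2.18 CPM in WT BM neutrophils and between 92.8 and 399 CPM in TANs.

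Promoter sequences are shown for some of the members on which the comparisons below turn. They are the 250 bases before the RefSeq start site (GRCm38.p6, the build of the mm10 alignments), written 5' to 3' on the gene's strand, in lower case with the ISRE core in capitals. The core was searched as GAAA, any 2 bases and GAAA on either strand, so that it reads TTTC, any 2 bases and TTTC where it lies on the other strand. Rsad2 (viperin, chr12:26456453-26456702, minus strand), Ifit1 (chr19:34640639-34640888, plus strand) and Gbp5 (chr3:142496684-142496933, plus strand) were lower in PyMT-Cxcr2-/- than in PyMT TANs and hold the core. Oasl1 (chr5:114922990-114923239, plus strand) was lower in the same comparison without the core in this window. Ifi35 was also lower, and its window, not shown, does not hold the core. Usp18 was lower too and had no window to search. Cmpk2 (chr12:26468965-26469214, plus strand), the divergent neighbor of Rsad2, was lower in TANs than in WT BM neutrophils and does not hold the core in this window.
Rsad2: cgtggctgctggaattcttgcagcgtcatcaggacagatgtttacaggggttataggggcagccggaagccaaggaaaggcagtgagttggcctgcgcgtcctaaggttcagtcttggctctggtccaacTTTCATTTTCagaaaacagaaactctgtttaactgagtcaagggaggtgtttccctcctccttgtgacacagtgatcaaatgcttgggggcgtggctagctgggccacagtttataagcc
Ifit1: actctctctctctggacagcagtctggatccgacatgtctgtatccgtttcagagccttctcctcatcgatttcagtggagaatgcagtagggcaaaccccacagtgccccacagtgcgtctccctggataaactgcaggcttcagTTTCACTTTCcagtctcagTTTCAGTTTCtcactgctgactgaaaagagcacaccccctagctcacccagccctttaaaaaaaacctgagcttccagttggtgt
Gbp5: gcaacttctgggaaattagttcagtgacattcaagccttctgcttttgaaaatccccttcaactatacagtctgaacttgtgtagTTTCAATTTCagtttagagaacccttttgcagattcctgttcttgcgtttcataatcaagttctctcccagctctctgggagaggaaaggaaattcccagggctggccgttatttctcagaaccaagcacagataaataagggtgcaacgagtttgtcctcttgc
Oasl1: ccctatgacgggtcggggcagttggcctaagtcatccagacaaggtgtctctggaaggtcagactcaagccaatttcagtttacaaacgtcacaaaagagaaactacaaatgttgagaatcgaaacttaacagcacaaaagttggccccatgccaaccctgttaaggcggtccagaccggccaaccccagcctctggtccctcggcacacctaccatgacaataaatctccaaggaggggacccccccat
Cmpk2: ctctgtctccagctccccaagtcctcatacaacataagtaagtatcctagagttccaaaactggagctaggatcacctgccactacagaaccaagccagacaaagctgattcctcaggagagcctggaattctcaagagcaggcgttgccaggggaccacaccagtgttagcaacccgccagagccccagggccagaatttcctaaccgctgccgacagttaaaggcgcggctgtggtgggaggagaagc

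For 6 members that were higher in TANs of both genotypes than in WT BM neutrophils, the 30 bases around the core are shown: Isg15 (chr4:156200875-156200904, minus strand), Cxcl10 (chr5:92349083-92349112, minus strand), Gbp3 (chr3:142559989-142560018, plus strand), Slfn5 (chr11:82951937-82951966, plus strand), Bst2 (chr8:71537583-71537612, minus strand) and Ifit3 (chr19:34583363-34583392, plus strand). Where cores overlap, the capitals cover all of them. These 6 were picked among members that hold the core. Others that were higher in both genotypes, such as Oasl2, Ifih1 and Herc6, do not hold it in their window.
Isg15: tgccgtagGAAAAGGAAACCGAAACAGAAA
Cxcl10: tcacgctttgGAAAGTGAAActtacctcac
Gbp3: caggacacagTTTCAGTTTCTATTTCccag
Slfn5: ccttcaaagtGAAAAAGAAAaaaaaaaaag
Bst2: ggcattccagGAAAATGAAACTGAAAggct
Ifit3: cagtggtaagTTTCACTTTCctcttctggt
The RefSeq table held a promoter for 36 of the 45 members. The ISRE core occurred in 16 of these 36 (44.4%), against 936 of all 27025 genes with a window (3.46%), and the GAS motif TTCNNNGAA, which reads the same on both strands, in 8 of 36 (22.2%) against 8.13%. Igtp, Gbp5, Gbp7 and Bst2 held both motifs. In Ifit1 the cores began 104 and 85 bases before the start site, and in Gbp5 the core began 165 bases before it. A match describes these letters only and is not evidence of binding.

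PyMT TANs expressed most of the antiviral genes at a higher level than WT BM neutrophils. Of the 43 members that passed the filter on low counts, 33 were higher, 4 were lower and 6 were not called. Among all 17153 genes tested, 30.1% were higher and 23.2% lower (53.3% in either direction), so the share of members that were higher (76.7%) exceeded that of all genes while the share that were lower (9.3%) was under it. The median log2 fold change was 1.70 for the 43 members and 0.09 for all genes. The mean log2 CPM of the 45 members was 4.32 ± 0.058 (SD, n = 4) in PyMT TANs and 2.56 ± 0.19 (SD, n = 4) in WT BM neutrophils, with libraries at 4.25 to 4.38 and 2.36 to 2.75. The 4 libraries of each group did not overlap for 38 members, where 58.2% of all genes tested did not overlap.

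PyMT-Cxcr2-/- TANs differed from WT BM neutrophils in the same direction for most members. The comparison called 29 members higher, 4 lower and 10 neither, against 34.4% higher and 25.1% lower (59.5% in either direction) among 17732 genes. Of the 43 members, 32 did not overlap between the groups, where the share over all genes was 65.8%. The median log2 fold change was 1.27 for the members and 0.09 for all genes, and the mean log2 CPM of the members was 3.89 ± 0.17 (SD, n = 4), with libraries at 3.65 to 4.04. Both comparisons use the same 4 WT BM libraries, so their calls are not independent. Side by side, 28 members were higher in TANs of both genotypes, 4 (Cmpk2, Dhx58, Samd9l and Slfn2) were lower in both, 5 were called higher for PyMT TANs alone (Ifit1, Ifi35, Igtp, Irgm1 and Dtx3l), 1 for PyMT-Cxcr2-/- TANs alone (Oas3), and 5 were called in neither (Irf1, Irf7, Irf9, Stat2 and Parp9). A call for one genotype alone does not show a difference between genotypes, which the direct comparison of TANs tests.

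All 8 macrophage markers were also called higher in TANs of each genotype than in WT BM neutrophils, as were all 5 mammary epithelial markers, which summed to at most 0.114 CPM in WT BM neutrophils (with Krt8, Krt14 and Csn3 at 0 in all 4 libraries) and to 36.9 to 380 CPM in TANs. Of the 8 neutrophil markers, 7 were lower in TANs of each genotype, Cxcr2 among them. In PyMT-Cxcr2-/- TANs Cxcr2 is the deleted gene, so its call there does not describe the cell type. Of all genes tested, 30.1% were higher and 23.2% lower for PyMT TANs, and 34.4% and 25.1% for PyMT-Cxcr2-/- TANs. The part of all these markers in the differences of the antiviral genes between TANs and marrow was not tested. In bulk RNA, fewer cells of a type and less RNA per cell cannot be told apart.

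**Figure D1:**
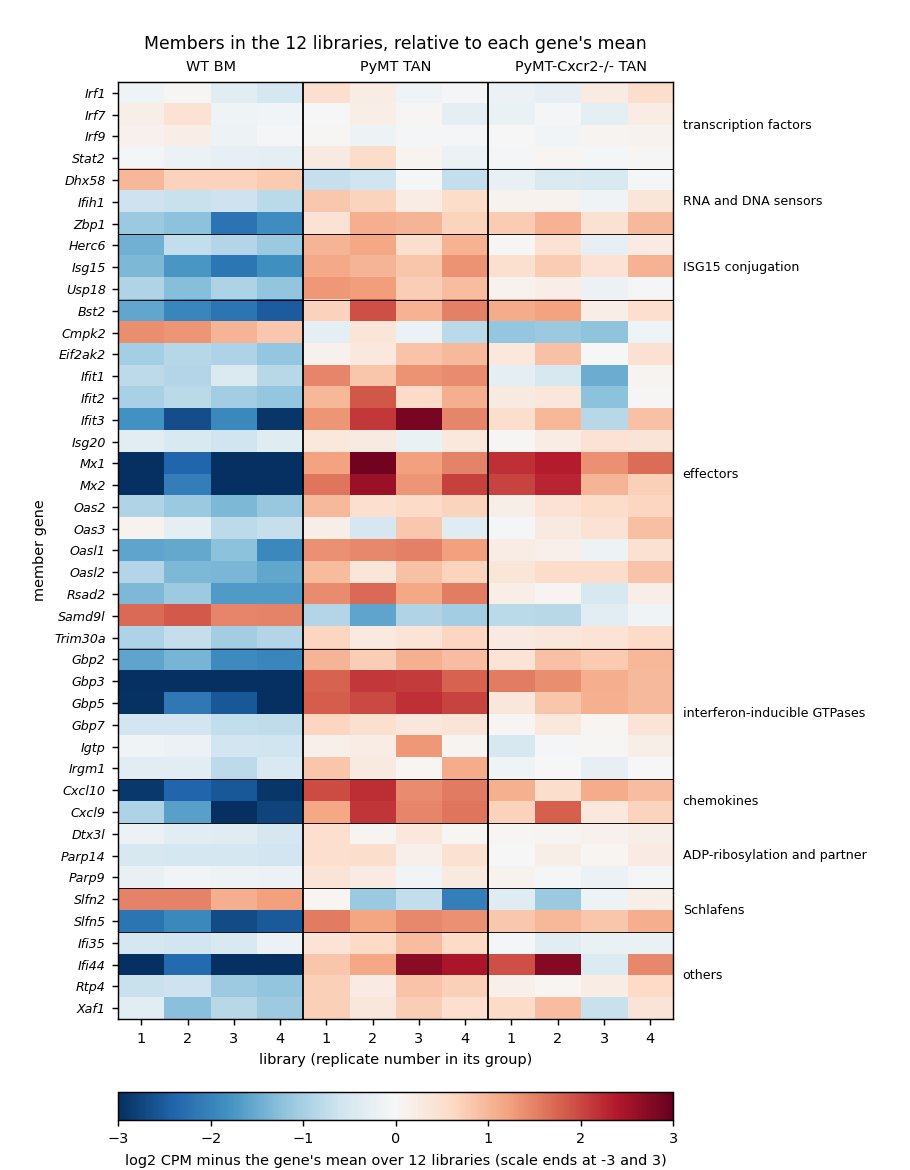
Heat map of the 43 members tested in all comparisons (rows, by role) in the 12 libraries (columns, replicates 1 to 4 of each group); color gives log2 CPM minus the gene's mean over the 12 libraries. Most rows are below their mean in WT BM neutrophils and above it in PyMT TANs, while Cmpk2, Dhx58, Samd9l and Slfn2 show the reverse and the 4 transcription factors vary little.

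**Figure D2:**
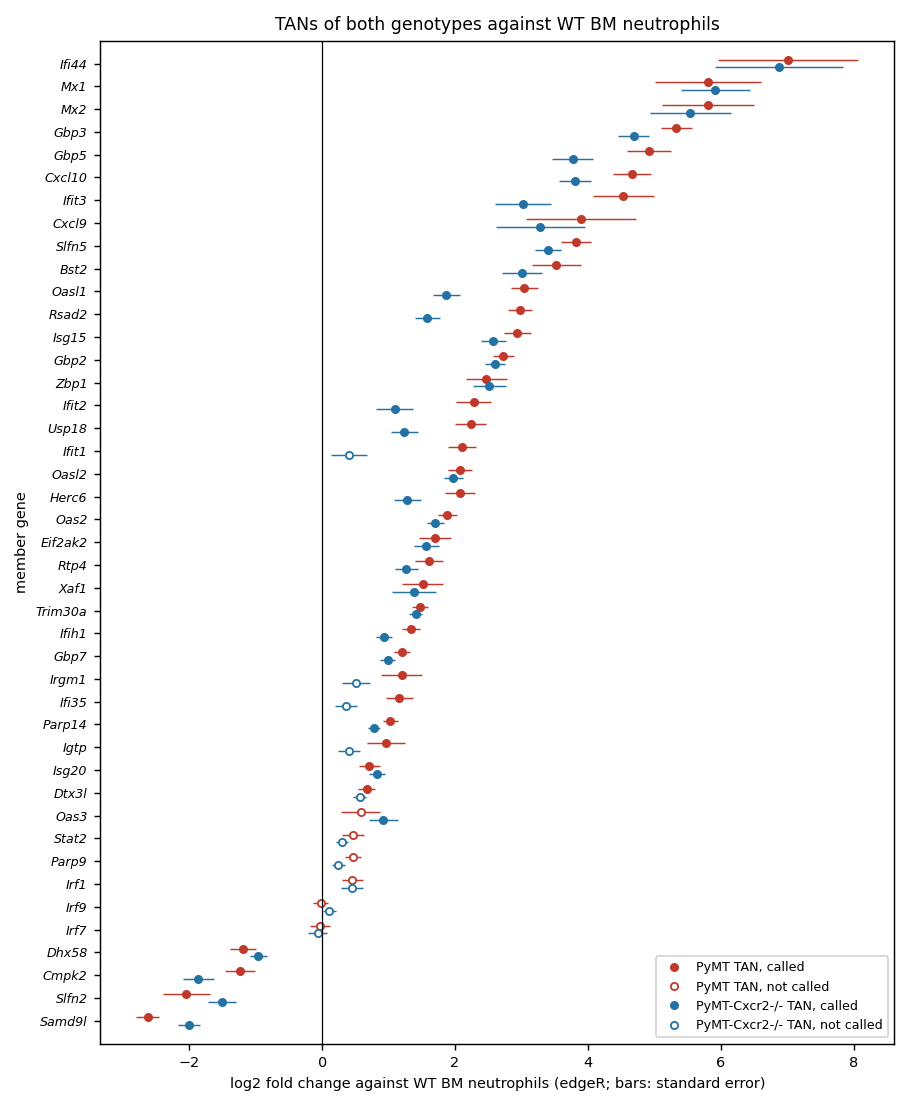
Log2 fold change against WT BM neutrophils for PyMT TANs (red) and PyMT-Cxcr2-/- TANs (blue), with standard errors as bars; filled points passed both thresholds. Gbp3 lies at 5.33 and 4.69 and Samd9l at -2.62 and -2.001, and the blue point lies left of the red one by more than 1 unit for Ifit1, Ifit3, Rsad2, Ifit2, Oasl1, Gbp5 and Usp18.

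The transcription factors among the members, Irf1, Irf7, Irf9 and Stat2, were not called in any comparison. Of the factors on the pathway list described below, Stat3, Irf5 and Irf8 were higher in TANs of each genotype than in marrow. On the same list Irf2 was lower in TANs of each genotype, and Irf3 was not called. Irf7, which amplifies type I interferon production, measured 59.5, 70.9, 47.6 and 49.2 CPM in WT BM neutrophils, 53.0, 59.8, 53.7 and 43.2 CPM in PyMT TANs, and 45.7, 50.2, 42.6 and 61.0 CPM in PyMT-Cxcr2-/- TANs. All 3 groups overlapped. The log2 fold change against marrow was -0.03 ± 0.16 (SE, adjusted p = 0.87) for PyMT TANs and -0.07 ± 0.14 (SE, adjusted p = 0.68) for PyMT-Cxcr2-/- TANs. Irf9, a DNA-binding partner of Stat2, lay between 59.7 and 76.8 CPM in all 12 libraries. Its log2 fold changes were -0.02 ± 0.12 and 0.11 ± 0.10 (SE, adjusted p = 0.89 and 0.35). Stat2 measured 32.5 to 38.0 CPM in WT BM neutrophils, 34.3 to 57.4 CPM in PyMT TANs and 37.6 to 40.5 CPM in PyMT-Cxcr2-/- TANs. Stat2 passed the p threshold but not the fold threshold, with log2 fold changes of 0.46 ± 0.16 and 0.30 ± 0.09 (SE, adjusted p = 0.027 and 0.012). Irf1, which is induced by interferon gamma and by NF-kappaB, had 126 to 187 CPM in WT BM neutrophils, 169 to 255 CPM in PyMT TANs and 153 to 259 CPM in PyMT-Cxcr2-/- TANs, with a log2 fold change of 0.45 ± 0.16 (SE) in each comparison (adjusted p = 0.029 and 0.025), again under the fold threshold.

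Among the 16 effector genes, 13 were higher and 2 lower in PyMT TANs than in WT BM neutrophils, and the same counts held for PyMT-Cxcr2-/- TANs. Among all genes tested, 30.1% were higher and 23.2% lower for PyMT TANs, and 34.4% and 25.1% for PyMT-Cxcr2-/- TANs. Mx1 and Mx2, dynamin-like GTPases that trap viral nucleocapsids, had the largest changes among members with an average log2 CPM of at least 1. Mx1 measured 0.0599, 0.249, 0.114 and 0 CPM in WT BM neutrophils, which is 0 to 8 reads per library, 3.53, 11.4, 3.56 and 4.29 CPM in PyMT TANs, and 6.98, 7.82, 3.97 and 4.90 CPM in PyMT-Cxcr2-/- TANs. Every TAN library lay above every marrow library, with log2 fold changes of 5.81 ± 0.80 and 5.92 ± 0.52 (SE, adjusted p = 8.6e-05 and 4.3e-07), and PyMT replicate 2 stood well above the other PyMT TANs. Mx2 behaved alike, at 0.25 CPM or less in marrow, 3.09 to 7.54 CPM in PyMT TANs and 2.02 to 6.09 CPM in PyMT-Cxcr2-/- TANs, with log2 fold changes of 5.81 ± 0.70 and 5.54 ± 0.60 (SE, adjusted p = 3.2e-05 and 3e-06).

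Of the Ifit genes, Ifit1 encodes a protein that binds viral RNA lacking host cap modifications. Ifit3 measured 0.31 to 0.72 CPM in WT BM neutrophils, 6.65, 11.7, 19.4 and 7.35 CPM in PyMT TANs, and 3.81, 5.32, 1.47 and 4.88 CPM in PyMT-Cxcr2-/- TANs, with log2 fold changes against marrow of 4.54 ± 0.47 and 3.02 ± 0.43 (SE, adjusted p = 1e-05 and 2.9e-05). Ifit2 rose in TANs of both genotypes, by 2.28 ± 0.26 and 1.09 ± 0.28 on the log2 scale (SE, adjusted p = 2.3e-05 and 0.0033). Ifit1 rose in PyMT TANs by 2.11 ± 0.21 (SE, adjusted p = 7.2e-06), while its log2 fold change in PyMT-Cxcr2-/- TANs was 0.40 ± 0.27 (SE, adjusted p = 0.21). PyMT-Cxcr2-/- replicate 3 was the lowest TAN library for Ifit1, Ifit2 and Ifit3. For Ifit1 and Ifit2 it lay below every marrow library (for Ifit2, log2 CPM of 2.33 against 2.41 to 2.75). Without that library the Ifit1 value in PyMT-Cxcr2-/- TANs was 0.66 and passed the thresholds. The mouse genome holds close Ifit copies such as Ifit3b, so reads of Ifit3 can be split between them.

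Bst2, known as tetherin because it holds budding virus at the cell surface, measured 1.32, 0.996, 0.83 and 0.67 CPM in WT BM neutrophils, 6.44, 15.3, 8.24 and 11.4 CPM in PyMT TANs, and 8.62, 9.32, 4.59 and 5.67 CPM in PyMT-Cxcr2-/- TANs. It rose by 3.52 ± 0.36 and 3.01 ± 0.30 on the log2 scale (SE). Bst2 is also a marker of plasmacytoid dendritic cells. Siglech, a marker that defines them, was at 0.783 to 1.20 CPM in marrow and 1.60 to 6.72 CPM in TANs. Of the other plasmacytoid markers listed, Tcf4 was also higher in TANs of both genotypes, with log2 fold changes of 1.83 and 1.75 against marrow. Ccr9 went the other way, with values of -0.57 and -0.47, and was not called. Trim30a, Oas2, Oasl2 and Eif2ak2, the kinase that stops translation on double-stranded RNA, were higher in TANs of both genotypes. Their log2 fold changes were 1.47 and 1.41 for Trim30a, 1.89 and 1.70 for Oas2, 2.08 and 1.97 for Oasl2, and 1.70 and 1.57 for Eif2ak2. Isg20, an exonuclease of single-stranded RNA, rose by 0.71 and 0.82. Oas3 measured 75.5 to 140 CPM in marrow, 91.8 to 226 CPM in PyMT TANs and 125 to 243 CPM in PyMT-Cxcr2-/- TANs, and was called for the latter alone (0.92 ± 0.22, SE, adjusted p = 0.0024).

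The effectors that fell against marrow were Cmpk2 and Samd9l. Samd9l, a restriction factor for poxviruses that also restrains cell growth, was the member with the highest level per kilobase of exon in WT BM neutrophils (142.2 CPM per kb, followed by Irf1 at 39.3). It measured 806, 889, 689 and 704 CPM in WT BM neutrophils, 136, 82.9, 133 and 122 CPM in PyMT TANs, and 142, 140, 197 and 232 CPM in PyMT-Cxcr2-/- TANs. No TAN library came near the marrow range, and Samd9l fell, with log2 fold changes of -2.62 ± 0.17 and -2.001 ± 0.16 (SE, adjusted p = 4.4e-07 and 2.2e-07). In TANs the order per kilobase was led by Irf1, at 50.9 CPM per kb in PyMT and 49.6 in PyMT-Cxcr2-/- TANs, and Samd9l stood at 21.8 and 32.8 CPM per kb.

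Cmpk2, a mitochondrial nucleotide kinase, and Rsad2, a radical SAM enzyme that converts CTP into a chain terminator of viral RNA synthesis, are neighbors on chromosome 12 with start sites 12752 bases apart and transcribed in opposite directions. Interferon commonly induces them together. Rsad2 measured 10.4, 12.4, 8.17 and 8.13 CPM in WT BM neutrophils, 70.6, 85.5, 58.8 and 77.1 CPM in PyMT TANs, and 30.6, 28.1, 19.0 and 30.4 CPM in PyMT-Cxcr2-/- TANs. Cmpk2 measured 87.4, 83.3, 68.3 and 58.2 CPM, 27.1, 43.1, 29.8 and 19.2 CPM, and 14.95, 15.5, 14.5 and 30.4 CPM in the same order of groups. The neighbors thus moved in opposite directions against marrow: Rsad2 rose by 2.98 ± 0.18 and 1.59 ± 0.18 (SE, adjusted p = 2.8e-07 and 4.5e-06) and Cmpk2 fell by 1.24 ± 0.23 and 1.86 ± 0.23 (SE, adjusted p = 7.4e-04 and 1.6e-05) on the log2 scale.

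The 3 sensors were split as well. Dhx58 (Lgp2), a regulator of the RNA helicases that sense viral RNA, measured 30.9 to 37.9 CPM in WT BM neutrophils, 11.6 to 18.7 CPM in PyMT TANs and 13.9 to 18.4 CPM in PyMT-Cxcr2-/- TANs, a fall of 1.19 ± 0.19 and 0.96 ± 0.12 on the log2 scale (SE, adjusted p = 2.8e-04 and 1.3e-05). Ifih1 (Mda5), the sensor of long double-stranded RNA, rose from 19.8 to 22.7 CPM in marrow to 40.5 to 60.7 CPM in PyMT TANs and 32.6 to 45.2 CPM in PyMT-Cxcr2-/- TANs. Zbp1, a sensor of Z-form nucleic acid that can trigger necroptosis, rose by 2.47 and 2.52 on the log2 scale, from 1.37 to 2.996 CPM in marrow to 8.80 to 13.99 CPM and 9.02 to 13.6 CPM.

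Isg15, the ubiquitin-like modifier, rose from 6.50, 4.98, 3.71 and 4.67 CPM in WT BM neutrophils to 37.0, 34.1, 30.1 and 42.7 CPM in PyMT TANs and to 23.2, 28.6, 22.7 and 34.6 CPM in PyMT-Cxcr2-/- TANs. Usp18, which removes Isg15 from proteins and blocks signaling at the type I receptor, and Herc6, its ligase in mice, rose in TANs of both genotypes. The log2 fold changes were 2.94 and 2.58 for Isg15, 2.24 and 1.23 for Usp18, and 2.07 and 1.28 for Herc6.

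All 6 interferon-inducible GTPases that were tested were higher in PyMT TANs and 4 of them in PyMT-Cxcr2-/- TANs. Of all genes tested, 30.1% and 34.4% were higher, in the same order. Gbp3 measured 0.60, 0.56, 0.43 and 0.56 CPM in WT BM neutrophils, 18.2, 23.2, 22.7 and 18.02 CPM in PyMT TANs, and 15.5, 13.99, 11.3 and 10.3 CPM in PyMT-Cxcr2-/- TANs, with log2 fold changes of 5.33 ± 0.24 and 4.69 ± 0.23 (SE, adjusted p = 4.7e-08 and 2.9e-09). Gbp5, which promotes inflammasome assembly, measured 0.54, 0.996, 0.74 and 0.34 CPM, 16.4, 18.3, 21.1 and 18.8 CPM, and 5.79, 8.21, 9.70 and 9.08 CPM in the same order, with log2 fold changes of 4.92 ± 0.33 and 3.77 ± 0.31 (SE, adjusted p = 4.4e-07 and 2.2e-07). For both genes the 3 groups were fully separated, with PyMT TANs highest. Gbp2 rose by 2.73 and 2.60 and Gbp7 by 1.20 and 0.98 on the log2 scale. Irgm1 and Igtp, immunity-related GTPases of vacuole control, rose in PyMT TANs by 1.20 and 0.96, whereas their values in PyMT-Cxcr2-/- TANs, 0.51 and 0.41, were not called. Igtp read 43.5 CPM in PyMT replicate 3 and 18.7 to 20.5 CPM in the other PyMT TANs, and without that replicate its log2 fold change was 0.55 and under the fold threshold. Ifi47, the seventh GTPase, had 1 read in a PyMT TAN library, 2 reads in a PyMT-Cxcr2-/- TAN library and none elsewhere. The 0 reads in a library allow up to 3 counts, which is 0.0584 to 0.12 CPM depending on the library, here without the TMM factors.

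Both chemokines that recruit Cxcr3-bearing T cells were higher in TANs. Cxcl10 measured 0.57, 0.84, 0.74 and 0.56 CPM in WT BM neutrophils, 17.8, 21.4, 12.4 and 13.5 CPM in PyMT TANs, and 9.62, 6.63, 9.97 and 8.75 CPM in PyMT-Cxcr2-/- TANs. The groups did not overlap, with log2 fold changes against marrow of 4.66 ± 0.28 and 3.80 ± 0.24 (SE, adjusted p = 2.4e-07 and 2.1e-08). Cxcl9 was lower in level, at 0 to 0.54 CPM in marrow, 2.44 to 4.85 CPM in PyMT TANs and 1.33 to 3.82 CPM in PyMT-Cxcr2-/- TANs, and rose by 3.90 and 3.28 on the log2 scale.

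The Schlafens, growth-regulating nucleic acid-binding proteins, went in opposite directions. Slfn5 rose from 1.83, 2.21, 1.29 and 1.45 CPM in WT BM neutrophils to 25.4, 19.3, 23.4 and 22.3 CPM in PyMT TANs and to 15.1, 17.1, 15.3 and 18.1 CPM in PyMT-Cxcr2-/- TANs, by 3.82 ± 0.23 and 3.40 ± 0.20 on the log2 scale (SE, adjusted p = 2.4e-07 and 1.1e-08). Slfn2, which is needed for quiescence of immune cells, fell from 39.0, 39.1, 29.4 and 32.7 CPM to 14.4, 6.35, 8.21 and 3.31 CPM in PyMT TANs and to 10.8, 6.35, 12.4 and 15.7 CPM in PyMT-Cxcr2-/- TANs, by 2.05 ± 0.35 and 1.51 ± 0.21 (SE, adjusted p = 4.4e-04 and 3.1e-05). Slfn1 had 13 reads in PyMT replicate 3 and none in the other 11 libraries.

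Of the ADP-ribosylation genes, Parp14 rose by 1.03 and 0.78 on the log2 scale. Dtx3l, the ubiquitin ligase that works with Parp9, had values of 0.67 (called) and 0.57 (not called), close to the fold threshold on either side, and Parp9 had 0.46 and 0.24, neither called. Among the remaining members, Rtp4 rose by 1.61 and 1.27 and Xaf1, an apoptosis factor, by 1.52 and 1.38. Ifi44 had 2 reads in all marrow libraries together, 0.956 to 3.62 CPM in PyMT TANs and 0.374 to 3.77 CPM in PyMT-Cxcr2-/- TANs.

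The direct comparison of the TAN groups asks whether the loss of Cxcr2 went with a different level of these genes in tumor neutrophils. Rsad2, Ifit1, Oasl1, Gbp5, Usp18 and Ifi35 were lower in PyMT-Cxcr2-/- than in PyMT TANs, and no member was higher. Of 43 members tested, 6 were lower, where 0.596% of all 18463 genes tested were lower and 1.38% higher (1.98% in either direction). At an unadjusted p under 0.05, 18 members were lower and 1 (Samd9l) was higher, and DESeq2 called 11 lower and 0 higher. The shares of all genes under these settings are not given here. The median log2 fold change was -0.32 for the members and -0.07 for all genes. Of 43 members, 36 had a negative value and 7 (16.3%) a positive one, where 44.0% of all genes had a positive value. The mean log2 CPM of the 45 members differed by -0.43, and its libraries did not overlap between the groups. Groups did not overlap for 14 of the 43 members (32.6%), where 11.9% of all genes tested did not overlap. In 13 of the 14 all PyMT-Cxcr2-/- libraries were below all PyMT libraries, and in Samd9l all were above.

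Rsad2 (ENSMUSG00000020641, chromosome 12, 26442746 to 26456452) averaged 73.0 ± 11.2 CPM in PyMT TANs (SD, n = 4), while the PyMT-Cxcr2-/- TANs averaged 27.0 ± 5.48 CPM (SD, n = 4). It fell by 1.47 ± 0.18 on the log2 scale (SE, adjusted p = 0.0074), it had the smallest p of the members, and it was called whichever single library was left out. Ifit1 (ENSMUSG00000034459, chromosome 19, 34640871 to 34650009) measured 24.99, 16.05, 23.04 and 24.2 CPM in PyMT TANs and 7.32, 6.43, 3.18 and 9.46 CPM in PyMT-Cxcr2-/- TANs, against 4.86 to 6.60 CPM in WT BM neutrophils. The PyMT-Cxcr2-/- libraries thus spanned the marrow range, and Ifit1 was lower than in PyMT TANs by a log2 fold change of -1.78 ± 0.30 (SE, adjusted p = 0.017).

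Oasl1 (ENSMUSG00000041827, chromosome 5, 114923240 to 114937915), known as an inhibitor of Irf7 translation, measured 22.7, 23.7, 25.1 and 20.6 CPM in PyMT TANs. The PyMT-Cxcr2-/- TANs had 10.2, 9.71, 7.83 and 12.001 CPM, against 2.26 to 3.69 CPM in WT BM neutrophils. It fell by 1.25 ± 0.18 on the log2 scale (SE, adjusted p = 0.011). Gbp5 (ENSMUSG00000105504, chromosome 3, 142493978 to 142522344) fell by 1.22 ± 0.21 (SE, adjusted p = 0.017). Both genes remained above the marrow libraries in every PyMT-Cxcr2-/- library.

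Usp18 (ENSMUSG00000030107, chromosome 6, 121245906 to 121270917) measured 13.1, 12.6, 8.88 and 10.1 CPM in PyMT TANs. It measured 5.73, 6.12, 4.72 and 5.08 CPM in PyMT-Cxcr2-/- TANs, with a log2 fold change of -1.08 ± 0.22 (SE, adjusted p = 0.030). Ifi35 (ENSMUSG00000010358, chromosome 11, 101448407 to 101458698), a partner of Nmi that can act as a danger signal, measured 11.4, 12.97, 16.2 and 12.9 CPM in PyMT TANs. The PyMT-Cxcr2-/- TANs had 8.22, 6.74, 7.46 and 7.46 CPM, near the 5.73 to 7.55 CPM of WT BM neutrophils, with a log2 fold change of -0.88 ± 0.20 (SE, adjusted p = 0.048). Usp18 and Ifi35 were each called in 1 of 8 fits that left out a library, and leaving out PyMT replicate 2 kept only Rsad2 of the 6 calls, with Ifit1 and Oasl1 at an adjusted p of 0.05 and Gbp5 at 0.066. Gbp5 was also not called without PyMT-Cxcr2-/- replicate 4 (adjusted p = 0.053). Exons of Oasl1, Usp18 and Ifi35 overlap genes on the opposite strand, and the strand setting of the counting is not given in the sources used here, so their counts are less certain than those of Rsad2, Ifit1 and Gbp5.

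A further 7 members had no overlap between the TAN groups, with PyMT-Cxcr2-/- TANs below, and were not called: Ifit2, Ifit3, Irgm1, Gbp3, Cxcl10, Herc6 and Slfn5. Their log2 fold changes were -1.27 for Ifit2, -1.59 for Ifit3, -0.76 for Irgm1, -0.72 for Gbp3, -0.93 for Cxcl10, -0.86 for Herc6 and -0.50 for Slfn5. Samd9l had a log2 fold change of 0.55 ± 0.20 (SE, adjusted p = 0.21). Members with clear changes against marrow had values near 0 here: 0.02 ± 0.41 for Mx1, -0.03 ± 0.22 for Zbp1, -0.14 ± 0.13 for Trim30a, -0.18 ± 0.16 for Oasl2 and -0.20 ± 0.15 for Gbp2 (SE). Isg15 had -0.43 ± 0.18 (SE, adjusted p = 0.26). The 4 transcription factors had values of -0.07 ± 0.19 for Irf1 (adjusted p = 0.94), -0.11 ± 0.16 for Irf7 (adjusted p = 0.85), 0.05 ± 0.12 for Irf9 (adjusted p = 0.91) and -0.24 ± 0.16 for Stat2 (adjusted p = 0.58), with SE after each value.

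**Figure D3:**
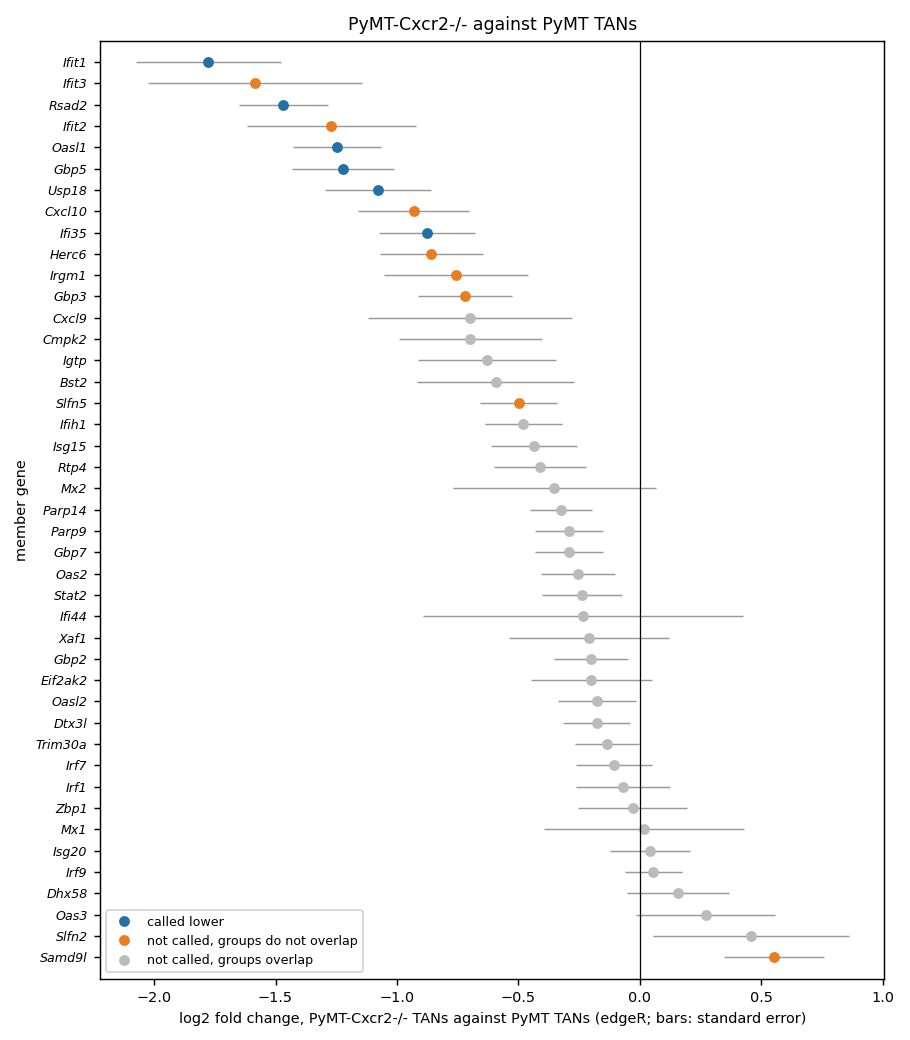
Log2 fold change of each of the 43 members between PyMT-Cxcr2-/- and PyMT TANs with its standard error; blue points were called lower, orange points had no overlap between the 4 libraries of each group without being called, and gray points overlapped. The 6 called members lie between -1.78 (Ifit1) and -0.88 (Ifi35), and Samd9l is the only orange point to the right of 0.

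**Figure D4:**
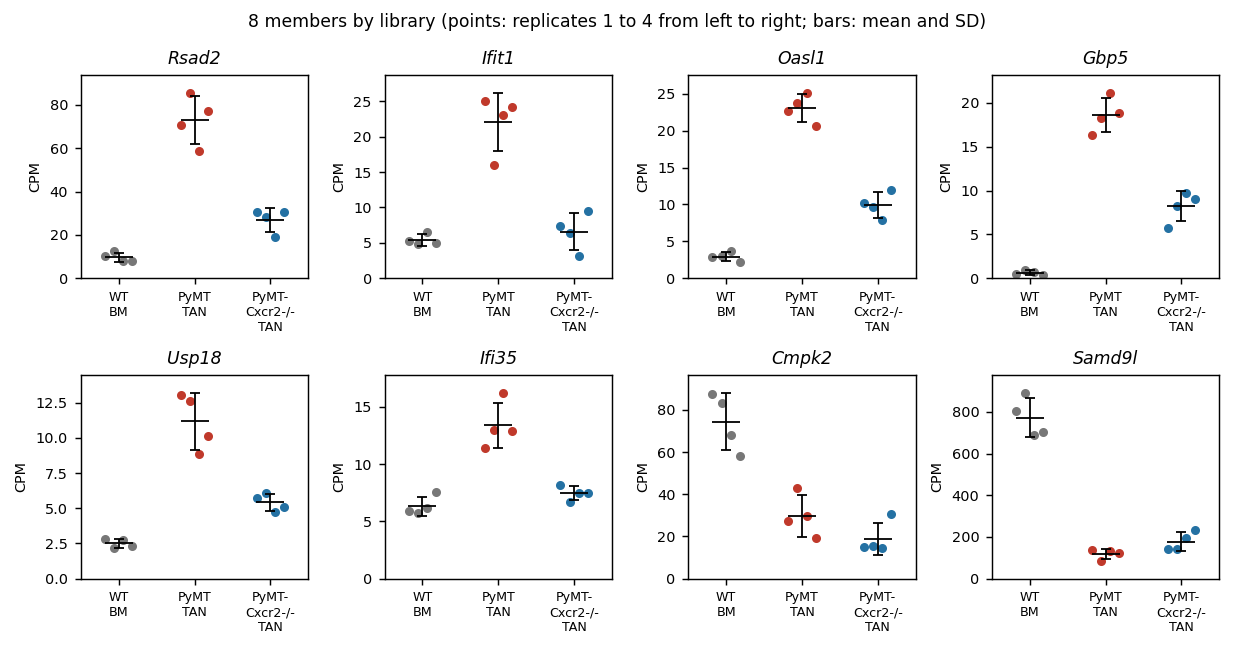
CPM of the 6 members called lower in PyMT-Cxcr2-/- TANs and of Cmpk2 and Samd9l in each library, with group mean and SD as bars; every vertical axis starts at 0. The Rsad2 means are 73.0 CPM (PyMT TANs), 27.0 CPM (PyMT-Cxcr2-/- TANs) and 9.79 CPM (WT BM neutrophils), and Cmpk2 and Samd9l are highest in WT BM neutrophils.

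Between the TAN groups, 0 of the 8 macrophage markers and 0 of the 5 mammary epithelial markers were called by edgeR or by DESeq2, and 0 reached an unadjusted p under 0.05 in either. The plasmacytoid list, which includes the member Bst2, summed to 38.8 to 71.0 CPM in PyMT and 41.9 to 69.7 CPM in PyMT-Cxcr2-/- TANs. Of the 8 neutrophil markers, 5 were higher in PyMT-Cxcr2-/- TANs, where 1.38% of all genes tested were higher. They were Ly6g (20.0 to 48.4 CPM in PyMT against 106 to 183 CPM in PyMT-Cxcr2-/- TANs), S100a8, S100a9, Retnlg and Mmp8. Cxcr2, the deleted gene, was lower. Csf3r and Itgam were not called, with log2 fold changes of 0.34 and 0.67 (adjusted p = 0.41 and 0.085). With a library left out, Ly6g, Retnlg and Mmp8 lost their call only without PyMT replicate 2, while S100a8 and S100a9 lost it in 6 of the 8 fits. Under 8 other settings with all libraries of the TAN groups, each of these 5 genes kept its call in 5. Itgam stayed not called in 5 of those 8. Of the 4 fibroblast markers, 0 were called by edgeR or DESeq2, and 2 reached an unadjusted p under 0.05 in each. These were the collagen genes Col1a2 and Col3a1, with log2 fold changes of 2.64 ± 1.097 and 2.68 ± 0.97 (SE, adjusted p = 0.28 and 0.21). The fibroblast markers summed to 0.595, 2.87, 12.5 and 7.97 CPM in PyMT TANs and to 23.01, 32.1, 32.7 and 1.46 CPM in PyMT-Cxcr2-/- TANs. Endothelial markers reached 32.3 and 23.8 CPM, T and NK cell markers 4.14 and 1.92 CPM, and B cell markers 14.1 and 9.67 CPM in sum. The part of all these markers in the differences of the antiviral genes was not tested.

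**Figure D5:**
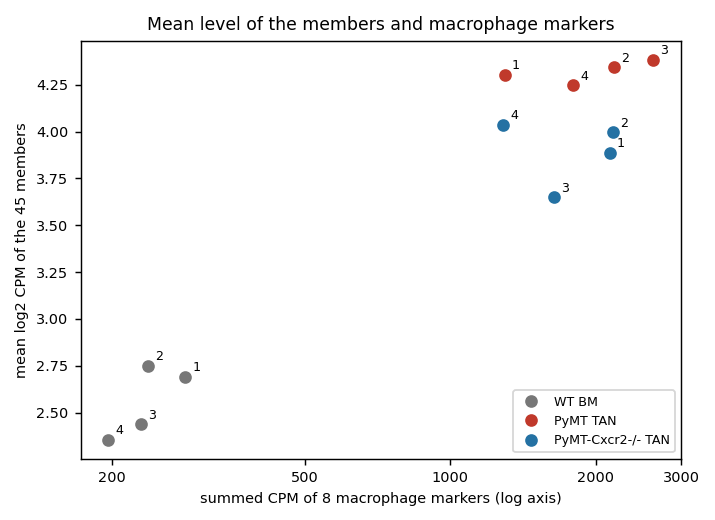
Mean log2 CPM of the 45 members against the summed CPM of 8 macrophage markers (log axis) in the 12 libraries, numbered by replicate. The macrophage sums are 196 to 283 CPM in WT BM neutrophils, 1296 to 2624 CPM in PyMT TANs and 1287 to 2167 CPM in PyMT-Cxcr2-/- TANs, and the means of the members are 2.36 to 2.75, 4.25 to 4.38 and 3.65 to 4.04 in the same order; whether one goes with the other was not tested.

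Within groups, the members varied by a median coefficient of variation of 17.8% to 18.1%. Of the 43 members, 23 were highest in PyMT-Cxcr2-/- replicate 4 and 21 lowest in PyMT-Cxcr2-/- replicate 3 among the 4 libraries of that group. In WT BM neutrophils, 21 were highest in replicate 1 and 21 lowest in replicate 4.

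The rest of the pathway was described with 30 genes of ligands, receptors, kinases, factors, sensors and inhibitors, of which 28 were tested. The ligand genes Ifnb1 and Ifng did not pass the filter and lay at or under 0.316 CPM in every library. In PyMT TANs 13 of the 28 were higher and 3 lower than in WT BM neutrophils, and in PyMT-Cxcr2-/- TANs 15 were higher and 3 lower. Called in either direction were 57.1% and 64.3% of the 28, near the 53.3% and 59.5% of all genes tested. Higher were 46.4% and 53.6% (30.1% and 34.4% of all genes), and lower were 10.7% in each comparison (23.2% and 25.1% of all genes). Ifngr2, Irf2 and Ticam1 were the genes that fell in TANs of each genotype. Irf8, a factor of the myeloid lineage, rose by 3.86 and 4.12 on the log2 scale, and the DNA sensor Tlr9 by 4.72 and 4.79. Socs3, an inhibitor of cytokine signaling that Stat3 induces, rose from 120 to 179 CPM to 790 to 1343 CPM and 1356 to 1757 CPM.

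Between the TAN groups, 2 of the 28 pathway genes were lower in PyMT-Cxcr2-/- TANs, where 0.596% of all genes tested were lower and 1.38% higher. With all libraries 0 were higher by edgeR or DESeq2. At an unadjusted p under 0.05, for which no share of all genes is given here, 6 were higher and 3 lower in each. Without PyMT replicate 1, 2 were called higher, the receptor chain gene Ifnar2 and the transcription factor gene Irf2, whose log2 fold changes with all libraries were 0.49 ± 0.14 and 0.45 ± 0.14 (SE, adjusted p = 0.10 and 0.14). In the other 7 fits without a library 0 were higher, and 0 or 1 of the 28 were lower in all 8. Ikbke, a kinase that activates Irf3 and Irf7, measured 57.0, 53.2, 36.3 and 27.0 CPM in PyMT TANs and 22.4, 17.3, 20.0 and 18.2 CPM in PyMT-Cxcr2-/- TANs, with no overlap and a log2 fold change of -1.19 ± 0.22 (SE, adjusted p = 0.024). Jak2, the kinase of the interferon gamma receptor, measured 472, 323, 402 and 428 CPM and 239, 214, 277 and 281 CPM, again with no overlap and a log2 fold change of -0.72 ± 0.15 (SE, adjusted p = 0.036). With a library left out, Ikbke stayed called in 4 of 8 fits and Jak2 in 0 of 8, at adjusted p of up to 0.11 for each, and neither was called with GC content and length adjusted.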

How the data were processed

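The authors sequenced rRNA-depleted, strand-marked libraries of sorted neutrophils, trimmed and aligned the read pairs to mm10 with STAR, and deposited HTSeq counts per Ensembl gene; the annotation release and strand setting are not given in the sources used here. Read pairs in no feature were left out. Of all pairs listed they made up 32.0% to 42.4% in WT BM neutrophils, 39.9% to 52.5% in PyMT TANs and 45.6% to 48.7% in PyMT-Cxcr2-/- TANs. Gene symbols and positions came from GENCODE M21, matched for 55154 of 55335 genes. Each comparison was fitted on its 2 groups with edgeR 4.0.16 in R 4.3.3 (TMM, filterByExpr, robust quasi-likelihood test, Benjamini-Hochberg adjustment over all genes), checked on simulated data. DESeq2 1.42.0, the authors' tool, and other settings were alternatives. Mean log2 CPM used a prior count of 2. The study describes the TAN comparison as 4 animals per group. The labels tie no library to an animal, and p-values measure the spread between these libraries. The smallest total was 25032704 reads, where 3 counts are 0.12 CPM without the TMM factors, and such floors cover counting error only.

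The members and lists were chosen with earlier results of these data known. Every member could be named. Full statistics went to up to 6 members per comparison and direction with the largest called change at an average log2 CPM of at least 1, to Irf1, Irf7, Irf9 and Stat2, and, between TANs, to the 4 with the smallest p. Other members were described by their values. Of the members, 19 share exon bases with another gene (7 on the same strand). Promoters were RefSeq GRCm38.p6, 250 bases before the start. A gene of the pathway list is not reported here.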

Additional observations from a re-analysis of the deposited data

Results flagged for a closer look

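In each group of 4 libraries, the gap between the highest or lowest library and its nearest neighbor was divided by the range, and a library was noted when this share passed Dixon's limit for 4 samples. Of 135 gene and group combinations, 8 were noted. The limit gives about 1 in 20 by chance for normally distributed values. That rate does not hold for genes with few or 0 reads, so the 8 cannot be set against it. Isg20 in PyMT TANs had a share of 0.924, with replicate 3 at 20.9 CPM and the others at 29.4 to 30.2 CPM. Mx1 in PyMT TANs had 0.833, with replicate 2 at 11.4 CPM and the others at 3.53 to 4.29 CPM. Igtp in PyMT TANs had 0.893, with replicate 3 at 43.5 CPM and the others at 18.7 to 20.5 CPM. Cmpk2 in PyMT-Cxcr2-/- TANs had 0.913, with replicate 4 at 30.4 CPM and the others at 14.5 to 15.5 CPM. The other 4 had a share of 1 because a single library held any read: Ifi44 in WT BM replicate 2 (0.0622 CPM), Ifi47 in PyMT replicate 1 (0.0212 CPM) and in PyMT-Cxcr2-/- replicate 1 (0.0383 CPM), and Slfn1 in PyMT replicate 3 (0.432 CPM).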

How the results depend on the processing

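The counts of members called against WT BM kept their direction and stayed within 1.5 times under every alternative run: 31 to 34 higher and 4 lower in PyMT TANs, and 29 to 32 higher and 4 lower in PyMT-Cxcr2-/- TANs. The all-gene median against marrow moved to 0.48 and 0.39 with DESeq2 and to 0.52 and 0.42 without a filter on low counts, where more genes of low count are tested. Between TANs, 6 members were lower. That count was 11 with DESeq2 and 11 with all 12 libraries in 1 fit, both including the 6 called here, and it ranged from 1 (without PyMT replicate 2) to 6 when a library was left out, with 3 without PyMT-Cxcr2-/- replicate 4. With the replicate number as a block, 1 member (Rsad2, adjusted p = 0.038) was lower, and 2 with the replicate block and an adjustment for GC content and length. With that adjustment alone, Usp18 and Ifi35 lost their call (adjusted p = 0.05 and 0.092). Ifi35 also lost it with RLE factors (adjusted p = 0.062) and without a filter on low counts (adjusted p = 0.1). Samples share only a number: same-numbered libraries deviated from their group means with a mean correlation of -0.042 (-0.206 to 0.083 over 12 pairs), and 0 of 12 libraries correlated best with their own number.

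Of single members, 31 values of 5 members called between TANs lost their call and 11 values of 5 others gained one, against 4 of 2 lost and 2 of 1 gained for PyMT TANs against marrow and 7 of 3 gained for PyMT-Cxcr2-/- TANs against marrow.

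Values that changed sign were of members not called. Against marrow in PyMT TANs, with at least 50 counts in 4 libraries, Irf7 was 0.073 and Irf9 0.086. In PyMT-Cxcr2-/- TANs, Irf9 was -0.029 with 12 libraries in 1 fit. Between TANs, Zbp1 was 0.025 with DESeq2, 0.022 with RLE factors and 0.032 without a filter. Adjusted for GC content and length, Isg20 was -0.10, Mx1 -0.046 and Irf9 -0.015, and with the replicate block added Isg20 was -0.12 and Irf9 -0.018. When a library was left out, the values of PyMT TANs against marrow ranged from -0.16 to 0.035 for Irf7 and from -0.13 to 0.0018 for Irf9, and those of PyMT-Cxcr2-/- TANs from -0.17 to 0.040 for Irf7. Between TANs the ranges were -0.059 to 0.12 for Isg20, -0.14 to 0.61 for Mx1, -0.21 to 0.094 for Irf1, -0.10 to 0.095 for Zbp1, -0.77 to 0.14 for Ifi44 and -0.43 to 0.045 for Xaf1. Depth limits Mx1, Mx2, Ifi44, Cxcl9 and Ifit3 in marrow, where single libraries hold few reads.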
